A study of Mus musculus with 8 samples.

Results

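The genes described here are 10 markers of mesothelium and of its cardiac form, the epicardium: Msln, Muc16, Upk3b, Upk1b, Krt8, Krt18, Krt19, Wt1, Bnc1 and Efemp1. They were chosen by name, and every array probe whose gene name equals 1 of them was taken, which gave 12 of the array's 41174 probes and 10 of its 27484 gene names. In all, 11 of the 12 probes, covering all 10 genes, were bright enough to be tested, among 22717 tested probes on the array. Their RNA was measured in hearts on 1-colour oligonucleotide arrays, in which the brightness of a spot follows the amount of the transcript. One group was 4 male mice aged 12 weeks that overexpress PKR2, taken here to be the second receptor for the prokineticin peptides, which signals through G proteins. The other was 4 male wild-type (WT) mice of the same age. The promoter that drives the receptor, the strain and the number of transgenic lines are not given in the sources used here. The 4 hearts of a group are separate samples in the labels, which do not name litters or pairs.

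The epicardium is a single sheet of mesothelial cells on the outer surface of the heart, continuous with the lining of the pericardial sac. Mesothelial cells secrete a lubricating coat of mucins and surface glycoproteins and, as an epithelium, contain filaments of simple keratins. In the embryo, epicardial cells that carry Wt1 leave the sheet, enter the muscle wall and give rise to fibroblasts and mural cells, and the adult sheet can take up part of this programme again after injury. The sheet is thin and lies directly over the fat and muscle of the heart. In RNA from whole tissue, fewer mesothelial cells and less RNA per cell cannot be told apart.

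RefSeq's promoter table (build GRCm38.p6, 250 bases before to 50 after each annotated start) held 6 of the 10 genes, and 3 of these promoters are shown. Krt8 and Krt18 encode partner proteins of 1 keratin filament, their annotated starts lie 23874 bases apart on chromosome 15 and their levels moved together across the hearts. Bnc1 is shown because it had the largest difference and the widest spread of the 10 genes. Each is printed 5′ to 3′ on the gene's strand in lower case, and capitals mark matches to TATAAA (the TATA box) or GGGCGG (the GC box), searched on both strands.
Krt8, chr15:102004293-102004592, minus strand: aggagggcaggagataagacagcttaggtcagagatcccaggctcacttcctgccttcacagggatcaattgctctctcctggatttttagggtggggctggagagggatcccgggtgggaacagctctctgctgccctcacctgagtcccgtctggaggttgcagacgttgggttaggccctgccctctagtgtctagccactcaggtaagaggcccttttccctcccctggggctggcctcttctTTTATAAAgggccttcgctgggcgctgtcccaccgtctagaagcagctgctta
Krt18, chr15:102027966-102028265, plus strand: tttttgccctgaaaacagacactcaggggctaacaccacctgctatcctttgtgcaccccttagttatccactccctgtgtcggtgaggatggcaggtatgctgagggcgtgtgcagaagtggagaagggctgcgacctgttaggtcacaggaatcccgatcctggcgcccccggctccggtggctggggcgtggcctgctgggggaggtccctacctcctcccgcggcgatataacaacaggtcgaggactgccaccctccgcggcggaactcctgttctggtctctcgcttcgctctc
Bnc1, chr7:81992250-81992549, minus strand: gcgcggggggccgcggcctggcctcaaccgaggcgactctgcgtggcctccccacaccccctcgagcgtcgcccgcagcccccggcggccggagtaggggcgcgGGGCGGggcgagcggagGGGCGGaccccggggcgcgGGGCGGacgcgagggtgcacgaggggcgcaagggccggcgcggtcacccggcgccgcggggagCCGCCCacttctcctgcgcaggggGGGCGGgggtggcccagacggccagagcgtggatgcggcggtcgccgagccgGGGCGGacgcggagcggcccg
The Krt8 window holds TATAAA, beginning 1 base before the annotated start, with a match on the opposite strand that overlaps it. The Krt18 window holds neither motif, and the Bnc1 window holds 6 GC boxes and no TATA box. Over all 32851 promoters of the table, 13.6% hold TATAAA and 35.7% hold GGGCGG. The share of G and C is 58.0% for Krt8, 61.3% for Krt18 and 83.3% for Bnc1, against a median of 52.7% over the table. These matches describe letters and say nothing about which factor acts there.

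A few facts about the arrays bear on the values that follow. Each of the 8 arrays held 43379 non-control spots. Between 52.8% and 67.1% of spots were well above background on PKR2 arrays, against 48.3% to 57.8% on WT arrays. A level is the log2 processed signal minus the array's 75th percentile, so 0 is that percentile and 1 unit is a doubling. The single Prokr2 probe was not well above background on any array, at -6.46 ± 0.65 in PKR2 and -6.12 ± 0.62 in WT hearts (log2 level, SD, n = 4 each), so the overexpression named in the labels could not be checked here. All 8 cardiomyocyte markers, including the sarcomere genes Myl2, Myh6 and Tnnt2, were well above background in both groups, and their summed level (log2 of the markers' added signals, on the same scale) ran from 11.1 to 11.7 in PKR2 and from 11.02 to 11.4 in WT hearts. The arrays lay on 6 slides. Slide 3 held only PKR2 1, slide 4 only PKR2 2, slide 1 only WT 1 and slide 2 only WT 2. Slide 5 held PKR2 3 and WT 3, and slide 6 held PKR2 4 and WT 4. For the 4 hearts alone on a slide, slide and group therefore cannot be told apart. All PKR2 arrays lay at position 4 of their slide, and WT 1 to 4 lay at positions 4, 3, 3 and 2. On slides 5 and 6, array position and group cannot be told apart either. PKR2 4, WT 2 and WT 4 were scanned over a single low range and the other arrays over an extended range.

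For none of the 10 genes did the difference between PKR2 and WT hearts pass the test. In limma, 0 of the 11 tested probes passed an adjusted p of 0.05, and each had an adjusted p of 0.9997; across the array the same rule called 0 of 22717 probes (0%). At an unadjusted p under 0.05, limma called none of the 11, against 271 probes lower in PKR2 (1.19%) and 315 higher in PKR2 (1.39%) over the whole array. The PKR2 and WT hearts overlapped for all 11 probes; across the array, every PKR2 heart lay below every WT heart for 0.77% of probes and above for 1.06%. The PKR2 mean was the lower one for 10 of the 11 probes, against 45.8% of all tested probes, and the median difference was -0.24, against 0.019 over all tested probes (log2, PKR2 minus WT). That median was -0.14 without PKR2 1, and -0.036 without both PKR2 1 and PKR2 2. The 95% intervals reach as low as -1.29 (Bnc1) and as high as 0.58 (Upk3b), so changes of that size are not excluded by 4 hearts a group.

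**Figure D1:**
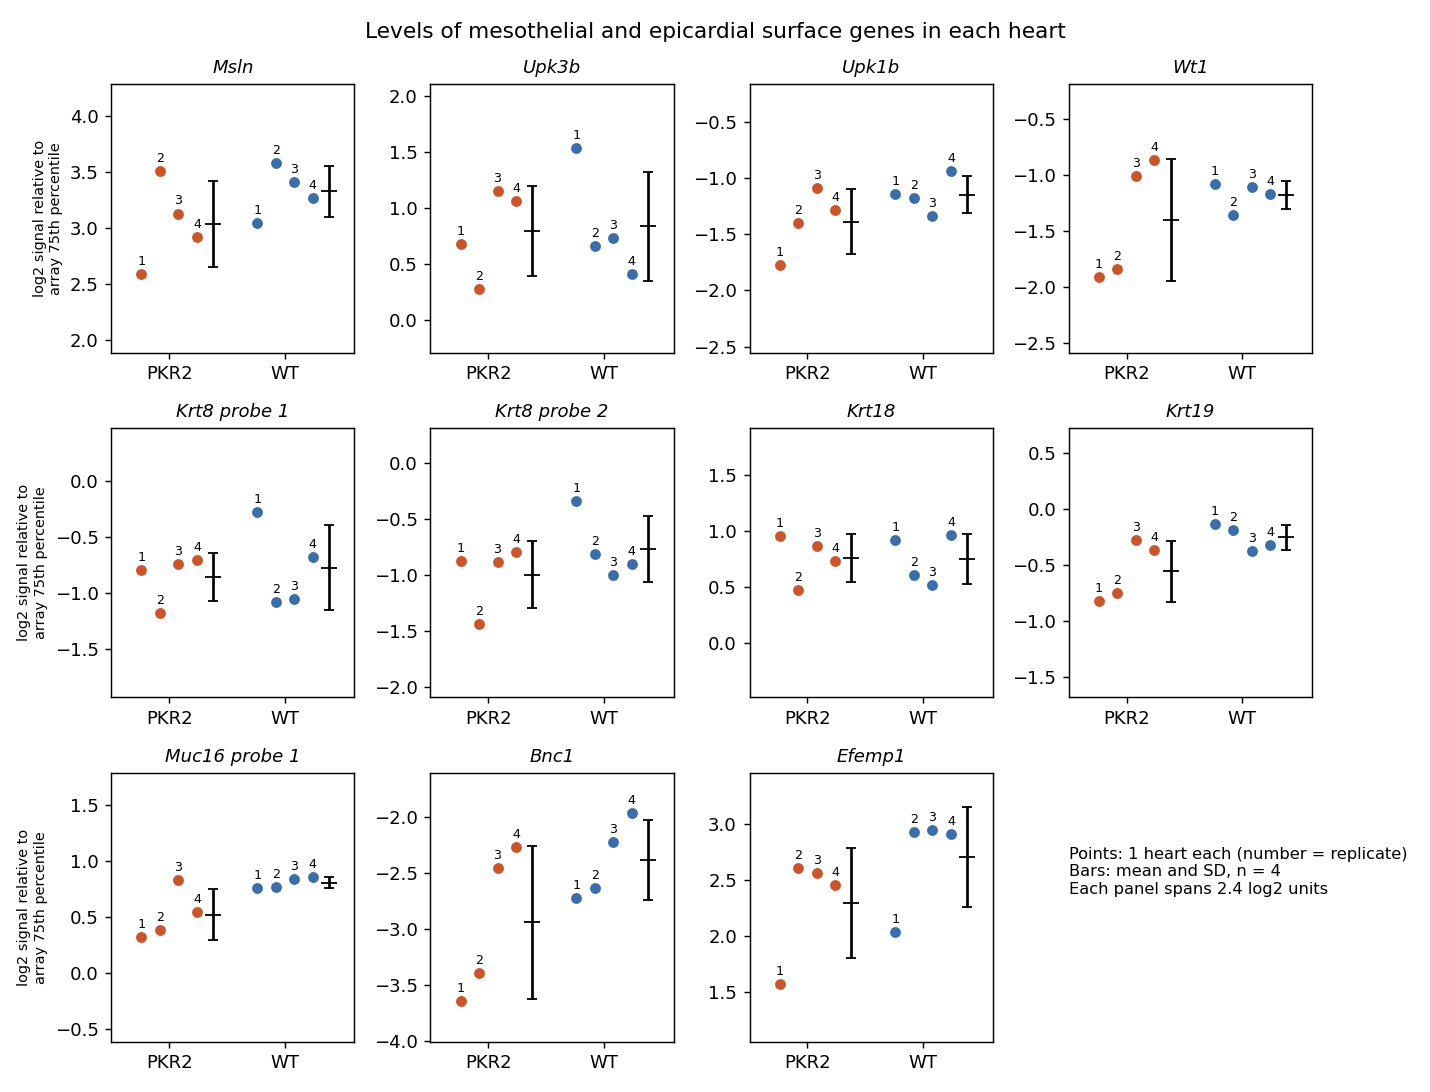
Level of each tested probe in each heart (y axis, log2 signal relative to the array's 75th percentile), PKR2 hearts left and WT hearts right. Points are single hearts numbered by replicate, bars are the mean and SD (n = 4), every panel spans 2.4 log2 units, and the groups overlap in all 11 panels.

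The first role is the cell surface. Msln encodes mesothelin, a lipid-anchored glycoprotein of the mesothelial surface, and its probe lies at chr17:25476224-25476283 on the minus strand (mm8, as for all probes here). Its level was 2.59, 3.51, 3.13 and 2.92 in PKR2 hearts 1 to 4, against 3.05, 3.58, 3.41 and 3.27 in WT hearts 1 to 4. PKR2 2 reached the WT range's upper part, and the other PKR2 hearts lay at its lower end or below it. The means were 3.04 ± 0.39 in PKR2 and 3.33 ± 0.23 in WT hearts (SD, n = 4 each), a difference of -0.29 (SE 0.22, 95% interval -0.78 to 0.20), which is a fold of 0.818 with an interval from 0.583 to 1.15. Within slide 5 the PKR2 heart differed from the WT heart by -0.28, and within slide 6 by -0.35. Both pairs of hearts that shared a slide thus ran the same way as the pooled value for Msln. Its size hung on single hearts: it was -0.14 without PKR2 1 and -0.45 without PKR2 2.

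Muc16 encodes a very large membrane mucin, known in humans as the antigen CA125, which binds mesothelin. Probe 1 (chr9:18245914-18245973, minus strand) read 0.32, 0.39, 0.84 and 0.55 in PKR2 hearts, against 0.76, 0.77, 0.84 and 0.86 in WT hearts. The WT hearts lay close together, and PKR2 3 alone of the PKR2 hearts fell among them. Its means were 0.52 ± 0.23 in PKR2 and 0.81 ± 0.050 in WT hearts, a difference of -0.29 (SE 0.16, 95% interval -0.64 to 0.068) with an unadjusted p of 0.102 in limma, the lowest of the 11 probes. The within-slide differences were -0.0091 on slide 5 and -0.31 on slide 6. Muc16 probe 2 (chr9:18310974-18311033, minus strand) lies 65000 bases from probe 1 and is assigned to another transcript record. It was not well above background on any PKR2 array and on 1 WT array, WT 4, so it was not tested. Its measured level averaged -6.78 ± 0.62 in PKR2 and -5.69 ± 0.99 in WT hearts; no fold is given, because the WT mean lies below the level that PKR2 arrays could have measured, -4.67. Of the Muc16 probes, 1 was therefore well above background on all 8 arrays and the other on 1.

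Upk3b and Upk1b encode uroplakins, membrane proteins first known from the plaques that cover the bladder lining. Upk3b (chr5:136329279-136329338, plus strand) read 0.68, 0.28, 1.15 and 1.07 in PKR2 hearts, against 1.54, 0.67, 0.73 and 0.41 in WT hearts. WT 1 was the highest heart and PKR2 2 the lowest, with the other hearts of both groups interleaved. The means were 0.79 ± 0.40 in PKR2 and 0.84 ± 0.49 in WT hearts, a difference of -0.043 (SE 0.28, 95% interval -0.67 to 0.58). This difference turned to 0.19 without WT 1 and to 0.13 without PKR2 2, and was 0.42 within slide 5 and 0.65 within slide 6. It was 0.54 in the fit with slide as a fixed block. Upk3b therefore had no settled direction.

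Upk1b is a tetraspanin. Its probe (chr16:38693078-38693137, minus strand) read -1.78, -1.40, -1.09 and -1.28 in PKR2 hearts, against -1.14, -1.18, -1.34 and -0.93 in WT hearts. PKR2 1 and PKR2 2 were the lowest hearts, and PKR2 3 lay above 3 of the WT hearts. The means of Upk1b were -1.38 ± 0.29 in PKR2 and -1.15 ± 0.17 in WT hearts, and the difference was -0.24 (SE 0.18, 95% interval -0.65 to 0.17). Its within-slide differences pointed opposite ways, 0.25 on slide 5 and -0.35 on slide 6, and the pooled difference was -0.11 without PKR2 1.

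The second role is the keratin skeleton of a simple epithelium. Krt8 and Krt18 encode a type II and a type I keratin that pair in filaments, and Krt19 is a further type I keratin of simple epithelia. Krt8 had 2 probes 72 bases apart, probe 1 at chr15:101824817-101824876 and probe 2 at chr15:101824949-101825008, both on the minus strand. Probe 1 read -0.79, -1.18, -0.75 and -0.71 in PKR2 hearts, against -0.28, -1.08, -1.06 and -0.68 in WT hearts. Probe 2 read -0.88, -1.44, -0.88 and -0.79 in PKR2 hearts, against -0.34, -0.82, -1.003 and -0.90 in WT hearts. Both probes placed PKR2 2 lowest and WT 1 highest, and in every heart they lay within 0.26 of each other. The probes' group differences were -0.082 (SE 0.21, 95% interval -0.56 to 0.40) for probe 1 and -0.23 (SE 0.21, 95% interval -0.70 to 0.23) for probe 2.

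Within slides, neither Krt8 probe kept the lower PKR2 value of the pooled fit on both slides. Probe 1 differed by 0.31 on slide 5 and -0.029 on slide 6, and probe 2 by 0.12 and 0.11. Without WT 1 the probe 1 difference was 0.083, and without PKR2 2 it was 0.025. Leaving out PKR2 2 brought probe 2 to -0.085, and leaving out WT 1 brought it to -0.091.

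Krt18 (chr15:101859944-101860003, plus strand) was the 1 gene of the 10 with a higher mean in PKR2 hearts, and its groups were the closest. Its level was 0.96, 0.47, 0.87 and 0.74 in PKR2 hearts, against 0.92, 0.61, 0.52 and 0.97 in WT hearts. PKR2 2 was the lowest PKR2 heart with the other PKR2 hearts closer together, WT hearts formed a higher and a lower pair, and both groups spanned almost the same range. The means were 0.76 ± 0.21 in PKR2 and 0.75 ± 0.22 in WT hearts, with a difference of 0.0034 (SE 0.18, 95% interval -0.39 to 0.40). Slide 5 gave 0.35 and slide 6 gave -0.23, and leaving out PKR2 1, PKR2 3, WT 2 or WT 3 turned the pooled difference below 0, as far as -0.074. The bounds of the Krt18 interval correspond to folds of 0.762 and 1.32. Across the 8 hearts the levels of Krt18 and of Krt8 probe 1 had a Pearson r of 0.81, and of 0.82 once each group's mean was taken out. This pair followed each other whatever the genotype, as a description over 8 arrays that share their scaling.

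Krt19 (chr11:99957168-99957227, minus strand) behaved otherwise. It read -0.82, -0.75, -0.28 and -0.37 in PKR2 hearts, against -0.13, -0.18, -0.37 and -0.32 in WT hearts. PKR2 1 and PKR2 2 lay below all other hearts, and PKR2 3 and PKR2 4 lay inside the WT range. The means were -0.55 ± 0.27 in PKR2 and -0.25 ± 0.11 in WT hearts, and the difference was -0.30 (SE 0.17, 95% interval -0.69 to 0.086). Within slides Krt19 differed by 0.098 on slide 5 and -0.048 on slide 6. Its difference was 0.025 in the fit with slide as a fixed block.

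The third role is transcription. Wt1 encodes a zinc finger factor that marks the epicardium from its formation, and it is also found in some endothelial cells of the heart. The Wt1 probe (chr2:104974110-104974169, plus strand) was printed as 10 spots on each array. The mean over its spots was -1.90, -1.84, -1.01 and -0.86 in PKR2 hearts, against -1.08, -1.35, -1.11 and -1.17 in WT hearts. PKR2 hearts fell into a low pair, PKR2 1 and PKR2 2, and a high pair, PKR2 3 and PKR2 4, which lay above every WT heart. The spots of 1 array had an SD of 0.088 to 0.13 on PKR2 arrays and of 0.070 to 0.089 on WT arrays, each over 9 or 10 unflagged spots, while the SD between hearts was 0.54 for PKR2 and 0.12 for WT (n = 4 each). The gap between the PKR2 pairs was therefore far larger than the spread of repeated spots, which measures printing and scanning within an array but not dissection, extraction or labelling.

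**Figure D2:**
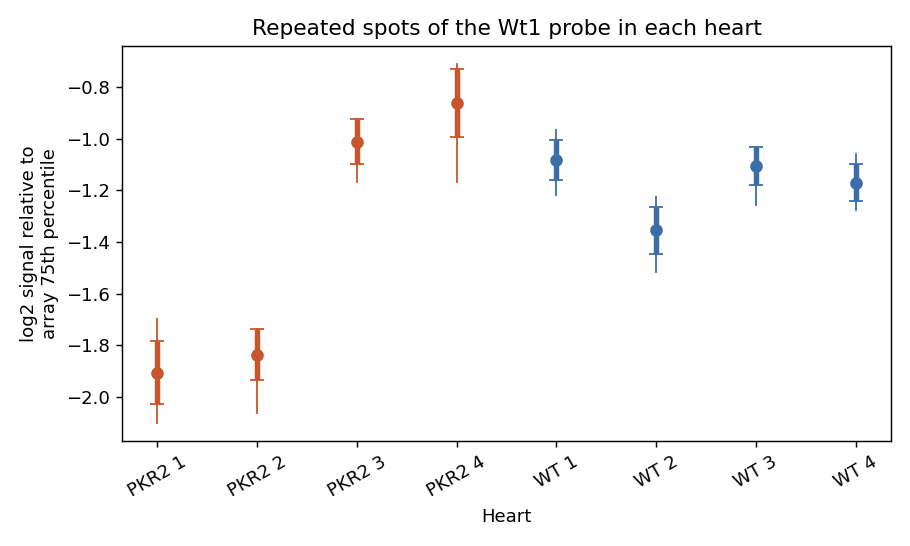
Level of the repeated Wt1 spots in each heart (y axis, log2 signal relative to the array's 75th percentile). Points are the mean of 9 or 10 spots, thick bars with caps the SD and thin lines the lowest and highest spot. PKR2 1 and PKR2 2 lie near -1.90 and -1.84, below all spots of the other 6 arrays.

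The group difference of Wt1 was -0.23 (SE 0.25, 95% interval -0.79 to 0.34) around means of -1.40 in PKR2 and -1.18 in WT hearts. On the slides that held both groups it had the other sign, 0.095 on slide 5 and 0.31 on slide 6, and it was 0.24 without PKR2 1 and PKR2 2. Left out singly, PKR2 1 gave -0.058, PKR2 2 gave -0.081, PKR2 3 gave -0.36 and PKR2 4 gave -0.41. The 3 arrays scanned over the single low range gave 0.40, and those scanned over the extended range gave -0.49. No direction can be given for Wt1 from these hearts.

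Bnc1 encodes basonuclin 1, a zinc finger protein of keratinocytes, germ cells and mesothelium. Its probe (chr7:81840605-81840664, minus strand) read -3.65, -3.40, -2.46 and -2.27 in PKR2 hearts, against -2.73, -2.64, -2.23 and -1.97 in WT hearts. As for Wt1, PKR2 1 and PKR2 2 were the lowest hearts, and PKR2 3 and PKR2 4 lay inside the WT range. The means were -2.94 ± 0.68 in PKR2 and -2.39 ± 0.36 in WT hearts. The difference of -0.55 (SE 0.33, 95% interval -1.29 to 0.18), a fold of 0.681 with an interval from 0.409 to 1.13, was the largest of the 11 probes. It was -0.23 on slide 5, -0.30 on slide 6, -0.32 without PKR2 1, and 0.027 without PKR2 1 and PKR2 2. Arrays scanned over the extended range gave -0.69, and those scanned over the single low range gave 0.032. Bnc1 and Wt1 had the highest Pearson r of the 45 pairs of genes, 0.88 over 8 hearts.

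The fourth role is secreted matrix. Efemp1 encodes fibulin-3, an extracellular glycoprotein made by mesothelial cells and also by fibroblasts. Its probe (chr11:28826538-28826597, plus strand) read 1.57, 2.60, 2.57 and 2.45 in PKR2 hearts, against 2.04, 2.93, 2.95 and 2.91 in WT hearts. In each group heart 1 stood below the other hearts, which lay within a narrow band, and the PKR2 band was below the WT band. The means were 2.30 ± 0.49 in PKR2 and 2.71 ± 0.44 in WT hearts, with a difference of -0.41 (SE 0.29, 95% interval -1.05 to 0.24). On slide 5 it was -0.38 and on slide 6 it was -0.45, and it ranged from -0.63 without WT 1 to -0.16 without PKR2 1. Efemp1, Msln, Bnc1 and Muc16 were the genes whose tested probe was lower in the PKR2 heart on both shared slides.

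**Figure D3:**
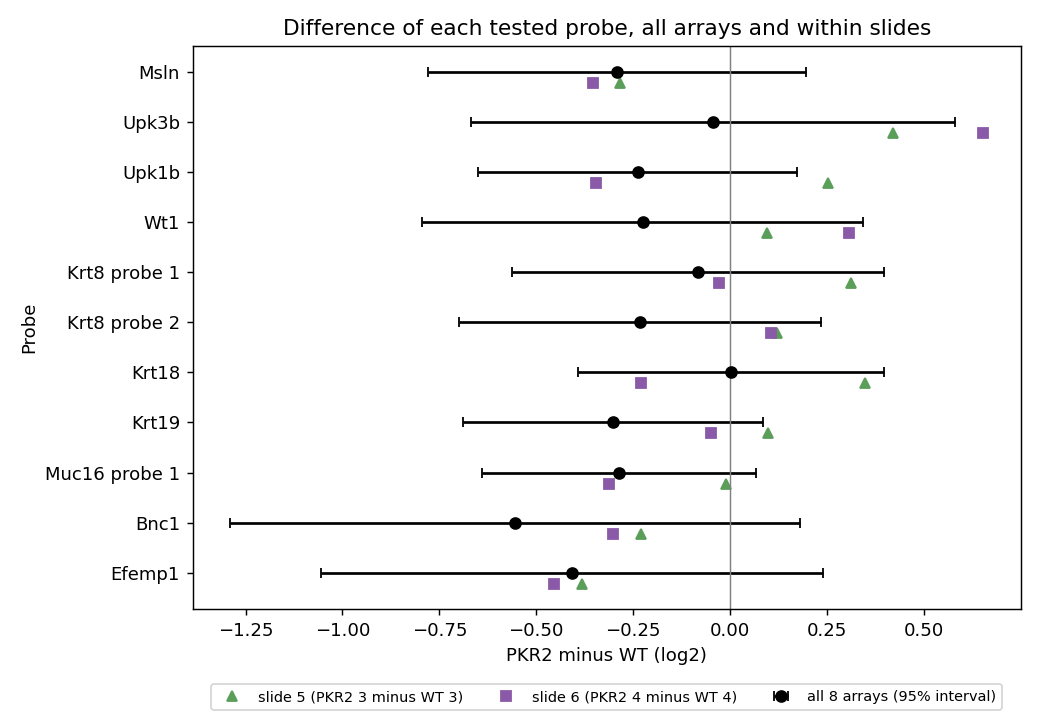
PKR2 minus WT difference of each tested probe (x axis, log2), with the 95% interval of the fit over all 8 arrays as black points and bars. Triangles are PKR2 3 minus WT 3 on slide 5 and squares PKR2 4 minus WT 4 on slide 6; every interval includes 0, and Upk3b, Wt1 and Krt8 probe 2 lie above 0 on both slides.

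The low values gathered in a pair of hearts. With 1 probe per gene, PKR2 1 was the lowest heart for 7 of the 10 genes and PKR2 2 for the other 3, while over all tested probes PKR2 1 was lowest for 13.0% and PKR2 2 for 13.5%. PKR2 1 and PKR2 2 were together the lowest hearts for 5 genes, Upk1b, Wt1, Krt19, Muc16 and Bnc1, a pattern that 3.42% of all tested probes had. After each gene's mean over the 8 hearts was subtracted, the average of the 10 genes was -0.43, -0.28, 0.15 and 0.075 in PKR2 hearts, against 0.15, 0.064, 0.087 and 0.19 in WT hearts. Thus PKR2 3 and PKR2 4 lay within the WT range of this average, and the other PKR2 hearts below it. The SD between hearts was larger in PKR2 than in WT for 8 of the 11 probes, against 38.7% of all tested probes.

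**Figure D4:**
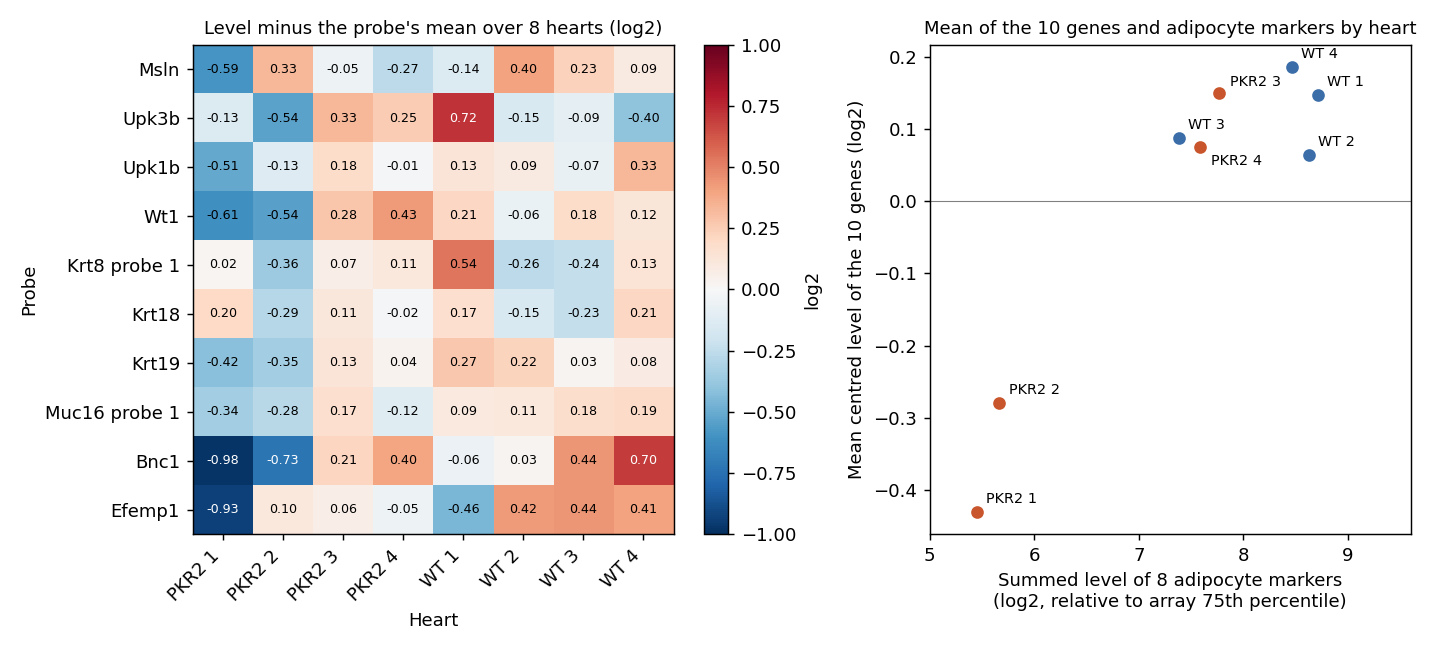
Left, level of each gene in each heart minus that gene's mean over the 8 hearts (log2, blue below and red above the mean), PKR2 hearts first. Right, the mean of the 10 genes on the y axis against the summed level of the 8 tested adipocyte markers on the x axis (both log2), 1 point per heart; PKR2 1 and PKR2 2 are lowest on both axes.

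Markers of fat moved with this pattern. The summed level of the 8 tested adipocyte markers of 10 was 5.45, 5.67, 7.77 and 7.59 in PKR2 hearts, against 8.71, 8.63, 7.38 and 8.47 in WT hearts. All 8 had a lower mean in PKR2 hearts, against 45.8% of all tested probes, and their median difference was -2.17. In limma, 7 were lower at an unadjusted p under 0.05, against 1.19% of all tested probes, and none passed the adjusted threshold. The brightest were Cidea, a lipid droplet protein of brown fat (-1.34, SE 0.33), Cfd, the adipocyte serine protease adipsin (-2.17, SE 0.93), and Ucp1, the uncoupling protein of brown fat (-2.64, SE 0.93). Of the markers not tested, Adrb3 was not well above background on any array and Lep was on 1 PKR2 and 1 WT array. PKR2 1 and PKR2 2 were lowest for fat markers and for the mesothelial average alike. WT 1 and WT 2 had the highest fat sums, with mesothelial averages of 0.15 and 0.064. PKR2 3 and PKR2 4 had lower fat sums, with mesothelial averages of 0.15 and 0.075. The summed level of the 4 tested thymus and T cell markers was highest in the same PKR2 pair, at -0.38, -0.10, -1.11 and -0.90 in PKR2 hearts, against -0.95, -0.86, -1.59 and -1.04 in WT hearts. The cardiomyocyte sum was also highest there, at 11.42, 11.66, 11.13 and 11.11 in PKR2 hearts, against 11.35, 11.41, 11.22 and 11.02 in WT hearts. The PKR2 pair that was low for the mesothelial genes was thus low for fat markers and had the highest T cell and cardiomyocyte sums. Not every marker followed its sum. Of the T cell markers, Cd3d was highest in PKR2 4 and Themis in WT 1, and Cd3e was higher in WT 2 than in PKR2 1. Of the cardiomyocyte markers, Ryr2 was highest in WT 3 and Pln in WT 4. PKR2 1 lay below WT 2 for Tnnt2 (8.92 against 9.15), Myl2 (9.40 against 9.71) and Actc1 (8.06 against 8.10). Among the tested markers of both lists, PKR2 1 and PKR2 2 were together the highest hearts only for Tnni3 and Dntt. Across the 8 hearts the mesothelial average had a Pearson r of 0.94 with the mean level of the fat markers, -0.72 with that of the T cell markers and -0.81 with that of the cardiomyocyte markers. Without PKR2 1 and PKR2 2 these values were 0.39, 0.43 and -0.51 in the same order. That pair was left out because it lay farthest from the median of the mesothelial average, a choice that by itself tends to weaken r. The part of these tissues or of slide in the low mesothelial values was not tested.

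Transcripts of lung were seen in single hearts. Sftpc, which encodes a surfactant protein of the lung alveolus, read 2.30 in PKR2 3 and 2.55 in WT 1, and lay between -6.45 and -5.26 in the other 6 hearts; it was chosen after its values were seen. Sftpa1 and Sftpd, further surfactant proteins, were likewise well above background in 1 PKR2 and 1 WT heart, at -2.35 and -2.50 in PKR2 3, against -1.73 and -2.13 in WT 1. Sftpb went otherwise: it was highest in PKR2 1 (-2.40), its 1 array above background, and read -5.56 in PKR2 3 and -5.58 in WT 1. Ager was highest in WT 2 (-2.87). Sftpc, Sftpa1 and Sftpd thus peaked in PKR2 3 and WT 1, and Sftpb and Ager in other hearts. Of the 8 lung markers only Scgb1a1, a secreted protein of airway cells, was tested, and it read -0.17 in PKR2 3, against -3.25 in WT 1. Epcam and Cldn18 were not well above background on any array. WT 1 was the highest heart for Upk3b, Krt8 and Krt19, and PKR2 3 lay inside the WT range for 9 genes and above it for Wt1. The part of lung or pleural tissue in these values was not tested. Without PKR2 3 and WT 1 the median difference of the 11 probes was -0.34, with 8 probes lower and 3 higher in PKR2 hearts, and 0 passed the adjusted threshold.

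The other marker lists had median differences closer to 0 than the fat markers. The smooth muscle and T cell medians were larger in size than the -0.26 of the 10 mesothelial genes. The 7 fibroblast markers had a median difference of -0.024 with 4 lower and 3 higher in PKR2 hearts. The 6 endothelial markers had -0.088, the 4 atrial markers -0.0035 and the 4 smooth muscle markers -0.32. Of the smooth muscle markers, 3 were lower and 1 higher in PKR2 hearts. The higher one, Acta2, differed by 0.36 (SE 0.13). All PKR2 hearts lay above all WT hearts for Acta2, as they did for 1.06% of all tested probes. Of the 7 thymus and T cell markers, the 4 tested were higher in PKR2 hearts with a median of 0.47. None of these markers passed the adjusted threshold.

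A wider set of 22 further mesothelial and epicardial genes was examined in the same way. Of these, 20 were tested, 14 were lower and 6 higher in PKR2 hearts, 0 passed the adjusted threshold in limma, and 1 had an unadjusted p under 0.05, with a median difference of -0.15. Dmkn and Cdh1 were not tested, and Cdh1, the cadherin of epithelial junctions, was not well above background on any array. The list's summed level was 6.56 to 7.07 in PKR2 hearts, against 7.06 to 7.59 in WT hearts. By heart it was 6.56, 7.07, 7.05 and 6.95 in PKR2 1 to 4, so PKR2 1 was again lowest, but PKR2 2 was the highest PKR2 heart. The sum follows its brightest gene, C3, at 5.70, 6.33, 6.33 and 6.23 in PKR2 hearts. Genes of the list differed: PKR2 2 was the lowest heart for Lrrn4, Gpm6a, Cldn15 and Tbx18 and the highest for Rarres2, Scx and Sema3d. They were named after their values were seen. The list's mean level had a Pearson r of 0.89 with the mesothelial average, and -0.54 without PKR2 1 and PKR2 2. Slpi, a secreted inhibitor of leukocyte proteases, was the 1 gene with an unadjusted p under 0.05 in limma. It read -0.48, 0.30, 1.12 and 0.09 in PKR2 hearts, against 1.18, 2.27, 0.89 and 0.71 in WT hearts. Its difference was -1.01 (SE 0.40) with an unadjusted p of 0.031 and an adjusted p of 0.9997 in limma, and the groups overlapped.

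The next smallest p-values of the wider set belonged to C3, Crb2 and Tcf21. C3, the central complement component, differed by -0.44 (SE 0.22). Crb2, a polarity protein of epithelia, differed by -0.39 (SE 0.22). Tcf21, a factor of epicardial cells that turn into fibroblasts, ran the other way at 0.27 (SE 0.17). None of the 3 passed the adjusted threshold.

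The 10 genes did not form a single pattern across the hearts. Over 45 pairs of genes the Pearson r across 8 hearts had a median of 0.43, was positive for 39 pairs, and ran from -0.71 (Msln and Krt18) to 0.88 (Wt1 and Bnc1). Upk1b, Wt1, Krt19, Muc16 and Bnc1 each followed the mean of the other 9 genes, at r between 0.86 and 0.91. Without PKR2 1 and PKR2 2 those values were 0.72 for Upk1b, -0.27 for Wt1, -0.069 for Krt19, 0.32 for Muc16 and -0.29 for Bnc1. The pair left out was the one farthest from the median of the genes' mean, which by itself tends to weaken r. The drop therefore does not tell whether these genes are alike in the other hearts. Msln and Efemp1 followed each other (r of 0.86) and the mean of the fibroblast markers, at r of 0.83 for Msln and 0.80 for Efemp1, and at 0.66 and 0.83 without PKR2 1 and PKR2 2. Krt8 and Krt18 ran against the fibroblast markers, at r of -0.82 and -0.86, and at -0.96 and -0.78 without that pair. The likeness was not limited to fibroblast markers: with the mean of the atrial markers, r was 0.69 for Msln, 0.42 for Efemp1, -0.90 for Krt8 and -0.71 for Krt18, and 0.95, 0.79, -0.86 and -0.64 without that pair. These values describe 8 arrays that share scaling and dissection, and the groupings were seen in the data.

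Among 18974 probes well above background on all 8 arrays, the named genes outside the set whose levels were most like the mean of the 10 genes were Rpe, Cfd, Cxcl13, Cyp2e1 and Retn. Their Pearson r over 8 hearts was 0.967 for Rpe, an enzyme of the pentose phosphate pathway, 0.959 for Cfd, 0.952 for the chemokine Cxcl13, 0.949 for the cytochrome P450 enzyme Cyp2e1 and 0.948 for the adipocyte hormone resistin, encoded by Retn. Without PKR2 1 and PKR2 2, the pair farthest from the median of that mean, the values were 0.037, -0.044, 0.45, -0.037 and 0.24, in the same order of genes. Cfd, for example, read 1.89, 3.30, 6.34 and 6.43 in PKR2 hearts 1 to 4, against 5.89 to 7.31 in WT hearts.

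The direction of several genes also depended on how the arrays were treated. When slide was a fixed block, a fit that draws on slides 5 and 6 only, 5 of the 11 probes were lower and 6 higher in PKR2 hearts, and their median difference was 0.025. Under normexp background correction with an offset of 50, which moved the median of all tested probes to -0.12, Msln read 0.13 and Upk3b 0.14. The same offset went to every array, though the 75th percentile of processed signal was 40.9 to 116 on the single low range. On the extended range it was 318 to 770, so the offset weighs more on the low-range arrays. The offset's part in these values was not tested. Between the extended and the single low scan range, Upk3b went from -0.43 to 0.53 and Krt8 probe 1 from -0.24 to 0.17. Wt1, Bnc1, Krt8 probe 2 and Krt18 also changed sign between scan ranges, and the other tested probes did not. In all 19 refits, 0 of the 11 probes passed the adjusted threshold in limma.

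**Figure D5:**
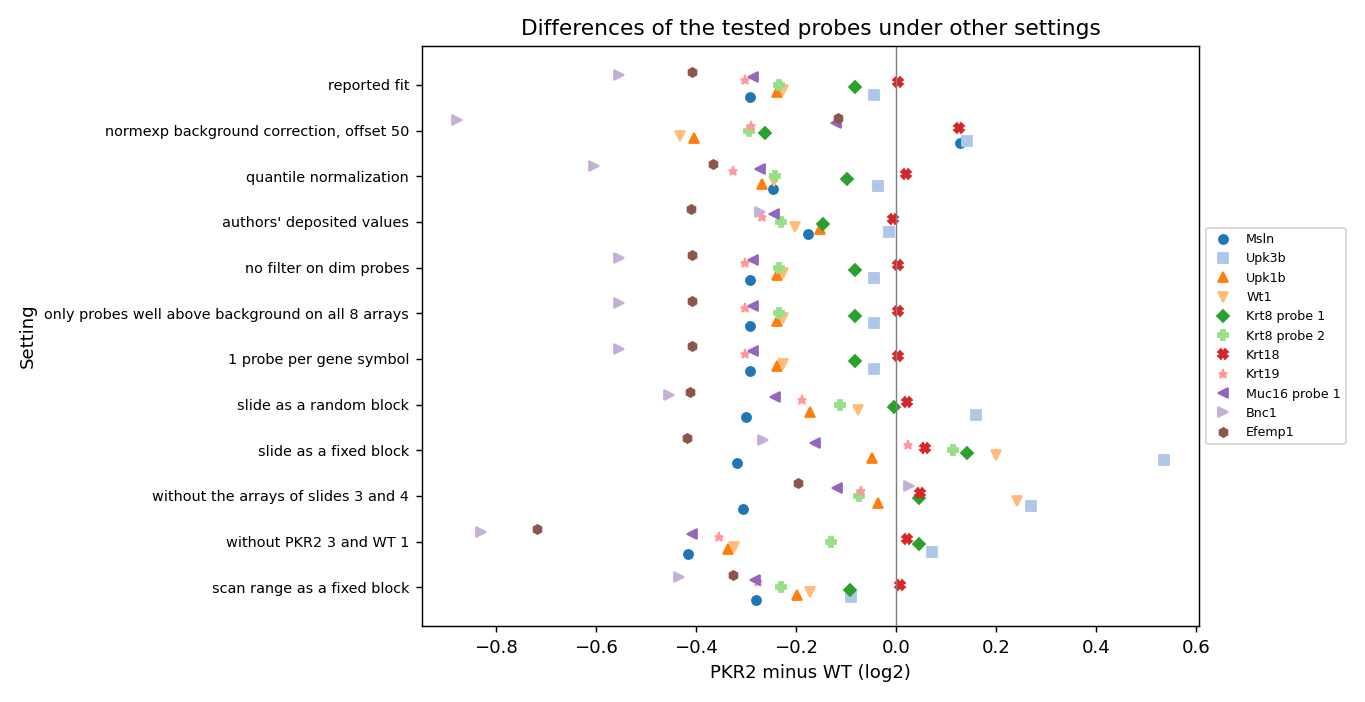
PKR2 minus WT difference of the tested probes (x axis, log2) under the reported fit and 11 other settings (y axis), 1 symbol per probe. Bnc1 moved from -0.55 in the reported fit to 0.027 without the arrays of slides 3 and 4, and Upk3b from -0.043 to 0.54 with slide as a fixed block.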

How the data were processed

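RNA of 8 mouse hearts was labelled with Cy3, per the labels' protocols. Agilent Feature Extraction 9.5.1.1 quantified the images, corrected them for background and flagged outlying spots, per the file headers, which give probe positions on mm8. The deposited scanner files give linear spot intensity for each array alone, before any scaling across arrays. A value table deposited by the authors gives intensity as whole numbers; its column medians lie between 139 and 144, and on each array its log2 values correlated with the levels used here at r of 0.986 to 0.991 across probes. It was read as linear, uncentred signal. Its normalization is not given in the sources used here.

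The processed signal was taken to log2 (no pseudocount) and the array's 75th percentile over non-control spots was subtracted. Flagged spots were left out, saturated spots kept, and spots of a probe averaged. Probes entered the fit if 3 or more of the 4 arrays of either group had them well above background. A list's summed level is log2 of the summed scaled signal of its tested members, with the brightest probe per gene. PKR2 minus WT was fitted with limma 3.58.1 (lmFit and eBayes, no covariate) in R 4.3.3, with the data.table package (version 1.17.8), and adjusted by Benjamini-Hochberg over all 22717 tested probes. A test on simulated data, with 100 of these probes changed by 1 log2 unit and 100 by 2, recovered 46 and 89 at the same threshold. Replicate numbers are in accession order and pair nothing. Nothing states litters or extraction days. The p-values measure the spread between these hearts together with any effect of slide, scan range or array position, which the fit does not separate. The number of arrays limits the precision: the 95% interval of a probe reached a median of 0.48 to either side.

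Genes were named by the arrays' own gene name column. The members, the lists and the tests were chosen with earlier results of these data known. The rule for named genes takes all 10 members, the 4 of the wider mesothelial list with the smallest p, the 3 brightest of each cell type list and the 5 probes most like the members' mean; of the cell type lists, fat and cardiomyocyte markers are named where a result touches them. Alternatives were normexp, quantile normalization, the authors' values, other probe filters, 1 probe per gene, slide as a block and leaving out each array; scan range as a block and leaving out 2 pairs of arrays were added after the data were seen. Positions of probes within exons were not analysed here.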

Additional observations from a re-analysis of the deposited data

Results flagged for a closer look

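Of the 22 sets of 4 hearts (11 tested probes in each group), 3 held a heart whose gap to its nearest neighbour took up more of the range than Dixon's 95% critical value for 4 values; chance alone gives about 1 in 20. Krt8 probe 2 read -1.44 in PKR2 2, with the nearest PKR2 heart at -0.88. Efemp1 read 1.57 in PKR2 1, with the nearest PKR2 heart at 2.45. Efemp1 read 2.04 in WT 1, with the nearest WT heart at 2.91.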

How the results depend on the processing

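None of the 11 tested probes passed the threshold under any of the 19 refits, where the lowest adjusted p of these probes in limma was 0.551, under normexp. Over the whole array 0 probes passed in the reported fit, and 1 passed with only probes well above background on all 8 arrays, with slide as a random block, without PKR2 replicate 3 and without PKR2 3 and WT 1 (0 to 1 over the arrays left out in turn). That probe was Anks1, higher in PKR2 hearts in each case and named after its values were seen. The median difference of the tested probes was -0.24, and -0.34 to -0.14 with each array left out in turn; it was 0.025 with slide as a fixed block (slides 5 and 6 only) and -0.036 without the arrays of slides 3 and 4. Of 208 single-probe comparisons, 185 kept their direction and 23 reversed. Under normexp (offset 50), where the median of all probes was -0.12, Msln was 0.13 and Upk3b 0.14. In the authors' values Krt18 was -0.0051. With slide as a random block Upk3b was 0.16. With slide as a fixed block Upk3b was 0.54, Wt1 0.20, Krt8 probe 1 0.14, Krt8 probe 2 0.11 and Krt19 0.025. Without the arrays of slides 3 and 4, Upk3b was 0.27, Wt1 0.24, Krt8 probe 1 0.047 and Bnc1 0.027. Without PKR2 3 and WT 1, Upk3b was 0.073 and Krt8 probe 1 0.045. With each array left out in turn, Upk3b ran from -0.18 to 0.19, Krt8 probe 1 from -0.18 to 0.083 and Krt18 from -0.074 to 0.099. The cause of these reversals was not tested. Upk1b, Muc16 and Efemp1 kept a lower PKR2 mean in every setting. The labels give no replicate numbers that pair hearts; the only pairs are those on slides 5 and 6, which the fixed slide block uses. Signal close to background limits Muc16 probe 2 and Prokr2. Bnc1 was the dimmest tested probe, though well above background on every array. In WT 2 it read -2.64, where the lowest level well above background was -3.23. Its difference was -0.88 under normexp (offset 50) and -0.27 in the authors' values, against -0.55 in the reported fit.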
